A study of Mus musculus with 12 samples.

Results

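Genes that mark the dentate gyrus and the CA2 and CA3 fields of the hippocampus were followed in TRAP-Seq of vHPC neurons that project to NAc. They are 10 genes, chosen by symbol, of 37310 gene identifiers counted: Prox1, Dsp, C1ql2, Lct, Tdo2 and Npnt for the dentate gyrus, Pcp4, Rgs14 and Amigo2 for CA2, and Bok for CA3. TRAP (translating ribosome affinity purification) pulls down ribosomes tagged with GFP-L10a, so that the RNA comes from the tagged cells, while input is the RNA of the same tissue before the pulldown. The question here is how far markers of hippocampal fields other than CA1 and subiculum are held in TRAP RNA, and whether they differ with loss of FosB.

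Genotype (WT or KO) and fraction (TRAP or input) give 4 groups of 3 libraries. WT mice had no floxed FosB allele and KO mice were FosB fl/fl. Every mouse, WT included, was C57BL/6, carried Cre-dependent eGFP-L10a in Rosa26 and received retrograde HSV-Cre in NAc 3 weeks before vHPC was punched, and the age is not in the labels. Mice were pooled, and TRAP and input were made from the same pool, with pools 1, 2 and 3 for WT and 2, 3 and 4 for KO. Cre enters any neuron with an axon terminal in NAc, so tagging and deletion follow the axon and not the hippocampal field, and the input also holds the untagged cells of the punch. P-values below measure the spread between libraries of a group, each from its own pool. The main fits leave out the pairing of TRAP and input by pool. An alternative fit with the pool as a block and the sign-flip permutation test use it.

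In the hippocampus, granule cells of the dentate gyrus send mossy fibers to CA3, CA3 pyramidal cells send Schaffer collaterals to CA1, and CA2 is a small field between them that is known for a role in social memory. The output of the ventral hippocampus to NAc arises mainly from pyramidal cells of ventral CA1 and subiculum. Prox1 is the homeobox factor that sets granule cell identity, Dsp encodes desmoplakin, C1ql2 a secreted synaptic organizer of mossy fibers, Lct lactase, Tdo2 a dioxygenase of tryptophan breakdown, and Npnt nephronectin, a matrix ligand of the integrin Itga8. Pcp4 encodes a small calmodulin-binding peptide, Rgs14 a regulator of G protein signaling that limits plasticity in CA2, Amigo2 a cell adhesion protein, and Bok a relative of the cell death effectors Bax and Bak1.

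The 4 dentate gyrus markers called lower in TRAP than in input, and Rgs14, the gene called higher, are shown by the 150 bases before the first annotated start on mm9 (Gencode vM1), from the genome itself and in the direction of transcription, with every CpG in capitals. They are the dentate gyrus markers Prox1 (chr1:191994560-191994709, minus strand), C1ql2 (chr1:122237009-122237158, plus strand), Lct (chr1:130224896-130225045, minus strand) and Npnt (chr3:132613256-132613405, minus strand), and the CA2 marker Rgs14 (chr13:55470943-55471092, plus strand).
Prox1: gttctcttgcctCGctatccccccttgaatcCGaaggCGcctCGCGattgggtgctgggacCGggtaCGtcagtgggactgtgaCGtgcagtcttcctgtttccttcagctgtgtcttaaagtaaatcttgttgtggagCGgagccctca
C1ql2: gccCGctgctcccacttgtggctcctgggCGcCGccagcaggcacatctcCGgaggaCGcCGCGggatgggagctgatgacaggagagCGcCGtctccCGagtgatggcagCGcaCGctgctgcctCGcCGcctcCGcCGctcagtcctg
Lct: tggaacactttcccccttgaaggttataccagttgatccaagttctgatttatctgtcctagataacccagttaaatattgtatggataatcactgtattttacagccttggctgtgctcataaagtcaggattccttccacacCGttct
Npnt: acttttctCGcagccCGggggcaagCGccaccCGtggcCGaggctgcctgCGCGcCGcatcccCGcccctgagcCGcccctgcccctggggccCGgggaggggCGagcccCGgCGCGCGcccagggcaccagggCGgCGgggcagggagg
Rgs14: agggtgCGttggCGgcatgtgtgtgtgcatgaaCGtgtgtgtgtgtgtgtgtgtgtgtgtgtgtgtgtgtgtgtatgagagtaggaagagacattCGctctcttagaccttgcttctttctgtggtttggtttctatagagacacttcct
The granule cell markers have unlike promoters: in the 300 bases from 250 before to 50 after the start, Npnt has 32 CpGs, C1ql2 23, Prox1 18 and Lct 1, and Rgs14 has 7, beside a median of 11 over 22362 protein-coding genes. Of the 10 genes, Amigo2 had the most CpGs in this window, 46, and Tdo2 had 0. On either strand, the AP-1 motif TGANTCA, to which dimers of FosB and Jun proteins bind, was in the window of 0 of the 10 genes and of 6.93% of all genes. The CRE motif TGACGTCA was in 0 of 10 and 2.33%, and TATAAA in 1 of 10, Prox1, and 13.4%. A match is a run of letters and no evidence of binding.

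The libraries held 3416030 to 5614089 counts on genes, so that 3 counts stand for 0.534 to 0.878 CPM (counts scaled to the library total). CPM below are scaled by TMM, a factor per library that evens out composition, and "called" means an adjusted p under 0.05 over all genes tested by edgeR's quasi-likelihood test. Fosb ran from 32.0 to 45.2 CPM in WT TRAP and from 18.8 to 29.3 in KO TRAP, without overlap, and from 22.2 to 30.2 in WT input and from 14.8 to 17.0 in KO input, in the direction of the labels. Of 5 markers of glutamate neurons, 4 were called higher in TRAP than in input, and of those with enough counts for a test within TRAP libraries too, 5 astrocyte and 4 oligodendrocyte markers were called lower. Gjb6, Mog, Mag and all 6 microglia markers passed the filter on low counts through input alone, so that a lower TRAP level was bound to follow. The labels give the tissue as hippocampus neurons, but input libraries held 604 to 994 CPM of the oligodendrocyte markers summed. One library stands apart for GABA neuron markers: KO TRAP 2 held 628 CPM of the 10 genes summed, and the other TRAP libraries 168.5 to 412.

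Per kilobase of exon, Pcp4, Rgs14 and Bok led the 10 genes in both fractions. In input the mean of 6 libraries was 103 CPM per kb for Pcp4 (SD 24.9), 26.1 for Rgs14 (SD 2.39), 18.8 for Bok (SD 2.79), 11.5 for Prox1 (SD 4.42), 5.57 for Amigo2 (SD 1.47) and 4.53 for C1ql2 (SD 1.80). Dsp followed at 0.817 (SD 0.541), Npnt at 0.580 (SD 0.246), Lct at 0.575 (SD 0.513) and Tdo2 at 0.300 (SD 0.174). Amigo2 and C1ql2 are within their spread of each other, and so are Dsp, Npnt, Lct and Tdo2. In TRAP the order began again with Pcp4 at 136 CPM per kb (SD 56.5), Rgs14 at 35.1 (SD 5.42) and Bok at 16.1 (SD 7.02), but Amigo2 at 3.34 (SD 0.954), C1ql2 at 1.43 (SD 0.635) and Prox1 at 1.29 (SD 0.428) came next, with C1ql2 and Prox1 within their spread of each other. Prox1 was thus above Amigo2 in input and below it in TRAP. The lowest were Dsp at 0.433 (SD 0.257), Tdo2 at 0.151 (SD 0.178), Npnt at 0.144 (SD 0.189) and Lct at 0.115 (SD 0.125), and the last 3 are within their spread of each other. Since 37.9% of the exon length of Pcp4 overlaps Igsf5 on the same strand, reads there were ambiguous and left out of its count.

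**Figure D1:**
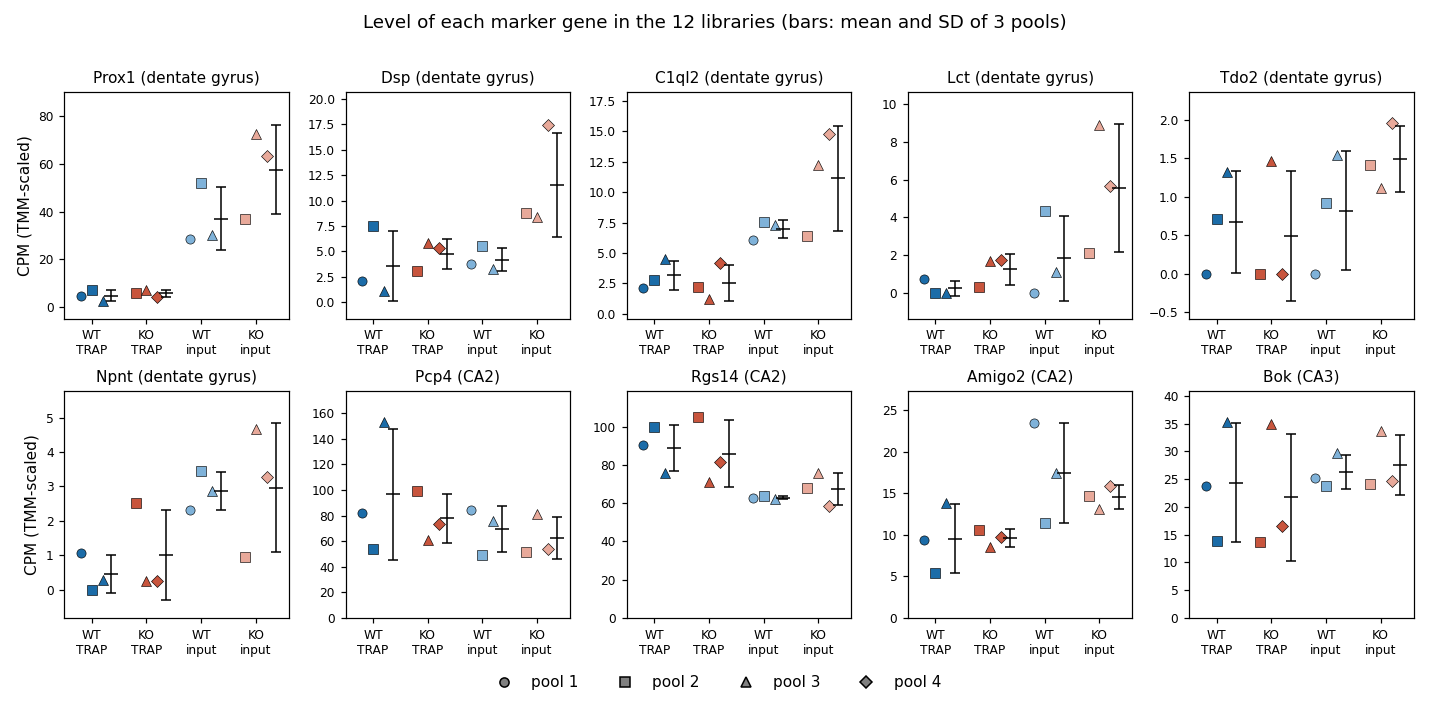
Level of each of the 10 genes in CPM (linear axis) in the 12 libraries, by group, with the marker shape giving the pool, and mean and SD of 3 pools in black. Prox1 lies at 2.66 to 7.29 CPM in TRAP and at 28.7 to 72.5 in input, while Rgs14 lies at 71.2 to 105 in TRAP and 58.6 to 75.6 in input, and the fractions overlap for Pcp4 and Bok.

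Prox1 and C1ql2 were lower in TRAP than in input, most of all Prox1. Over both genotypes, the 3 dentate gyrus markers with enough counts for a test within TRAP libraries as well were Prox1 and C1ql2, called lower, and Dsp, not called. Lct and Npnt were called lower too, but passed the filter on low counts through input alone, so that a lower TRAP level was bound to follow, and no count or median over the dentate gyrus markers is taken as support. The median log2 fold change over all 13214 genes tested was -0.01. Among all genes 22.5% were called lower and 19.6% higher. The CA2 markers were split, with Rgs14 higher, Amigo2 lower and Pcp4 not called, and Bok was not called. In all, 6 of the 9 genes tested were called, 5 lower and 1 higher, or 4 of 7, 3 lower and 1 higher, where a mean of at least 10 counts was asked for and Lct and Npnt were not tested. Tdo2 had too few counts to be tested. In bulk RNA, fewer cells of a type and less RNA per cell cannot be told apart.

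The TRAP level of Prox1 was 4.62, 7.29 and 2.66 CPM in pools 1, 2 and 3 of WT and 5.86, 7.07 and 4.40 in pools 2, 3 and 4 of KO. In input it stood at 28.7, 52.2 and 30.2 CPM in WT and at 36.9, 72.5 and 63.4 in KO. Each input library is above each TRAP library. The share of all genes whose fractions do not overlap was not counted, for Prox1 here or for C1ql2 below. The log2 fold change was -3.12 (SE 0.24, adjusted p = 1.35e-09 by edgeR), or 11.5% of input. TRAP was lower in 6 of 6 pools, by -2.51 to -3.71 on the log2(CPM + 0.5) scale, with p = 0.031 in the exact sign-flip permutation test (two-sided), the smallest it can give. Of all genes tested, 20.3% were below input in 6 of 6 pools and 18.3% above. Prox1 (chr1:191945660-191994559, minus strand) was also called in each genotype alone, at -2.91 (SE 0.34) in WT and -3.33 (SE 0.27) in KO.

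C1ql2 (chr1:122237159-122239748, plus strand) had 2.13, 2.82 and 4.52 CPM in WT TRAP and 2.23, 1.22 and 4.15 in KO TRAP. In input it had 6.09, 7.55 and 7.27 CPM in WT and 6.39, 12.2 and 14.8 in KO, again with no overlap between the fractions. The log2 fold change was -1.65 (SE 0.33, adjusted p = 0.000240 by edgeR), or 32.0% of input, and TRAP was lower in 6 of 6 pools (exact sign-flip p = 0.031). By genotype it was called in KO, at -2.13 (SE 0.46), and not in WT, at -1.16 (SE 0.50, adjusted p = 0.1003 by edgeR). The difference between the genotypes was itself tested and not called (interaction -0.95, 95% interval -2.33 to 0.42).

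Lct and Npnt were at the edge of detection. Lct (chr1:130181333-130224895, minus strand) had 4, 0 and 0 counts in WT TRAP, 1, 7 and 7 in KO TRAP, 0, 19 and 5 in WT input and 9, 40 and 26 in KO input. Pool WT 1 went against the others, with 4 counts in TRAP and 0 in input, and the fractions overlap. The log2 fold change of -2.37 (SE 0.72, adjusted p = 0.0101 by edgeR) fell to -1.33 (adjusted p = 0.215) without pool WT 2 and grew to -4.32 without pool WT 1. Npnt (chr3:132544709-132613255, minus strand) had 6, 0 and 1 counts in WT TRAP, 9, 1 and 1 in KO TRAP, 8, 15 and 13 in WT input and 4, 21 and 15 in KO input. Pool KO 2 went against the others, with TRAP above input, and is the pool whose TRAP library held the most GABA neuron marker RNA. Whether that bears on Npnt was not tested. Its log2 fold change was -2.05 (SE 0.65, adjusted p = 0.0120 by edgeR), and the call was lost without KO 3, KO 4 or WT 2, at -1.56, -1.75 and -1.71 (adjusted p = 0.102, 0.0726 and 0.0569), while without KO 2 it was -3.18. The exact sign-flip permutation p was 0.0625 for Lct and 0.094 for Npnt.

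Dsp was the dentate gyrus marker that was tested and not called. It had 2.13, 7.52 and 1.06 CPM in WT TRAP, 3.07, 5.85 and 5.37 in KO TRAP, 3.77, 5.49 and 3.30 in WT input and 8.76, 8.43 and 17.4 in KO input. TRAP was below input in 5 of 6 pools, with WT 2 the exception. Over both genotypes the log2 fold change was -0.75 (SE 0.37, 95% interval -1.51 to 0.01, adjusted p = 0.106 by edgeR). With the pool as a block, since TRAP and input come from the same mice, it was called at -0.85 (adjusted p = 0.0433), and without WT 2 at -1.17 (adjusted p = 0.0185). Alone, KO gave a call at -1.28 (SE 0.38) and WT none at -0.23 (SE 0.64), and the interaction was not called (-1.03, 95% interval -2.55 to 0.49). Dsp (chr13:38243197-38290446, plus strand) shares 3.74% of its exon length with Gm10129 on the other strand, as Prox1 does 3.22% with Gm17566 and Amigo2 2.02% with Fam113b, and whether the counting used the strand is not stated.

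Tdo2 (chr3:81761012-81780124, minus strand) had 0, 3 and 5 counts in WT TRAP, 0, 6 and 0 in KO TRAP, 0, 4 and 7 in WT input and 6, 5 and 9 in KO input. These counts run from 0 to 9, on both sides of 3 counts, the level below which a gene cannot be told from absent. A difference was not detectable at this depth.

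Among the CA2 markers, Rgs14 was higher in TRAP. Rgs14 (chr13:55471093-55486048, plus strand) had TRAP levels of 90.3, 99.9 and 76.0 CPM in WT and 105, 71.2 and 81.3 in KO. Its input levels were the most even of the 10 genes, at 62.7, 63.9 and 62.1 CPM in WT and 67.7, 75.6 and 58.6 in KO. TRAP was higher in 5 of 6 pools, with KO 3 the exception at -0.09 on the log2 scale. The log2 fold change was 0.42 (SE 0.11, adjusted p = 0.00208 by edgeR), or 134% of input, and it was called without each pool in turn, while the exact sign-flip permutation p was 0.0625. It was called in WT alone, at 0.50 (SE 0.15), and not in KO alone, at 0.34 (SE 0.15, adjusted p = 0.0922 by edgeR), with an interaction of -0.15 (95% interval -0.58 to 0.29) that was not called.

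Amigo2 moved the other way. It had 9.42, 5.41 and 13.8 CPM in WT TRAP, 10.6, 8.53 and 9.77 in KO TRAP, 23.5, 11.4 and 17.4 in WT input and 14.7, 13.1 and 15.9 in KO input. WT TRAP 3 is above 2 of the input libraries, but within its own pool TRAP was lower in 6 of 6 (exact sign-flip p = 0.031). The log2 fold change of Amigo2 (chr15:97074505-97077718, minus strand) was -0.73 (SE 0.23, adjusted p = 0.0107 by edgeR), or 60.1% of input. It missed the threshold without KO 4 or WT 1, at -0.68 and -0.59 (adjusted p = 0.0554 and 0.0521). Within WT alone the log2 fold change was -0.86 (adjusted p = 0.0936 by edgeR), which was called with the pool as a block, at -0.89 (adjusted p = 0.0456), and in a single fit of all 12 libraries, at -0.87 (adjusted p = 0.0421). Within KO alone it was -0.61 (adjusted p = 0.0981 by edgeR), and no alternative run gave a call there.

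Pcp4 (chr16:96689213-96747400, plus strand) had 82.2, 53.8 and 153.5 CPM in WT TRAP, 99.03, 61.0 and 73.5 in KO TRAP, 84.1, 49.4 and 75.5 in WT input and 51.4, 81.2 and 54.2 in KO input. The fractions overlap, TRAP was higher in 4 of 6 pools, and the log2 fold change was 0.39 (95% interval -0.25 to 1.03). Bok (chr1:95582271-95592339, plus strand) had 23.8, 13.9 and 35.3 CPM in WT TRAP, 13.7, 34.9 and 16.6 in KO TRAP, 25.2, 23.8 and 29.7 in WT input and 24.1, 33.7 and 24.6 in KO input. Bok varied more between TRAP libraries (SD 10.1 CPM over 6) than between input libraries (SD 3.99), with TRAP lower in 4 of 6, and its log2 fold change was -0.23 (95% interval -0.72 to 0.27). Neither interval leaves out a rise or a fall.

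**Figure D2:**
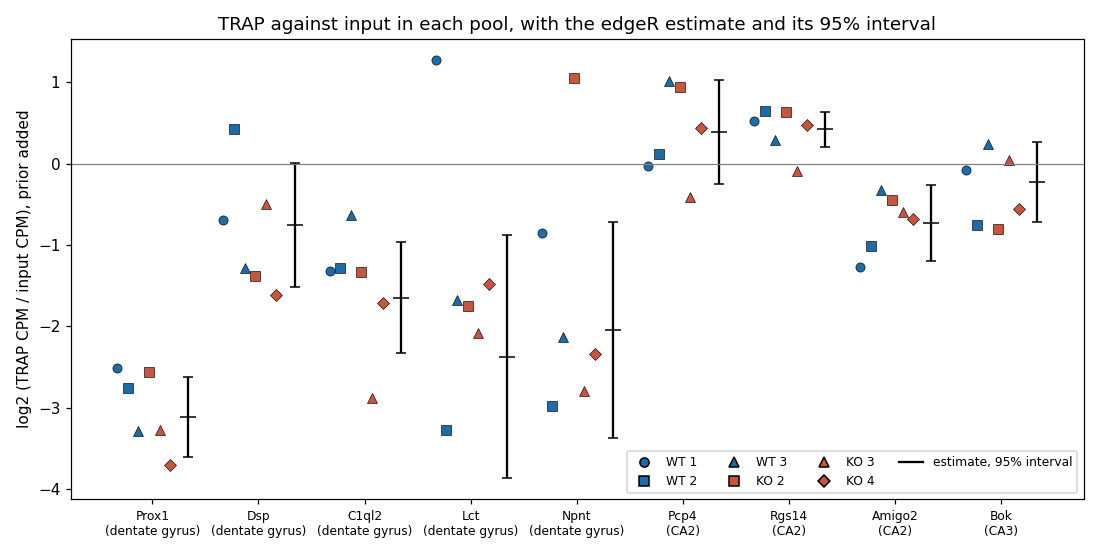
Log2 ratio of TRAP to input CPM (0.5 added to each) in each of 6 pools for the 9 genes tested, with the edgeR log2 fold change and its 95% interval in black. Prox1 runs from -3.71 to -2.51, and the dentate gyrus points above 0 are Dsp in WT 2, Lct in WT 1 and Npnt in KO 2.

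Within a single genotype, 2 of the 4 dentate gyrus markers tested in WT were called lower (Prox1, and Npnt, which passed the filter through input) and 3 of 4 in KO (Prox1, Dsp and C1ql2). In WT, 13.1% of all genes were called lower and 11.8% higher, and in KO 15.9% and 13.2%. Rgs14 was the 1 gene of the 10 called higher in WT, and none was in KO. Without WT 2 or WT 3, Prox1 was the 1 gene called in WT, with Rgs14 at 0.41 and 0.59 (adjusted p = 0.169 and 0.0786 by edgeR), while Npnt had too few counts for a test without WT 2 and stood at -2.27 without WT 3. The WT call of Npnt (log2 fold change -2.48, adjusted p = 0.0485 by edgeR) was lost with the pool as a block, and the calls in KO changed with single pools: without KO 4 Dsp was lost at -0.94, without KO 2 Npnt was gained at -3.89 and Lct, which then passed the filter through its input counts alone, at -2.09, and without KO 3 Pcp4 and Rgs14 were gained at 0.68 and 0.54. Over the 9 genes, 0 interactions of genotype and fraction were called by edgeR, 0 by DESeq2 and 0 at an unadjusted p under 0.05, beside 0.00757% of all genes called.

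Other markers of the same cells were taken from lists. Of 12 further granule cell genes, 7 were called lower and 1 higher, with a median log2 fold change of -0.96, beside 22.5% and 19.6% of all genes called. Of the 7, Glis3 and Sema5b had too few counts for a test within TRAP libraries, so that a lower TRAP level was bound to follow. The count and the median include both and are not taken as support. The transcription factor Glis3 was at -3.21 (SE 0.35), the guidance protein Sema5b at -2.33 (SE 0.57), the cation channel Trpc6 at -2.22 (SE 0.30) and Igfbp5, which binds insulin-like growth factors, at -1.14 (SE 0.17). Dock10, Stxbp6 and Trhr were the other genes called lower, at -0.96, -0.97 and -0.95. Calb1, a calcium buffer that CA1 pyramidal cells also express, was called higher at 0.35 (SE 0.08), and Plk5, a polo-like kinase, had the largest positive value, 1.24 (SE 0.51), and was not called (adjusted p = 0.0789 by edgeR). The immature granule cell marker Dcx was lower at -0.89 (SE 0.16), and Neurod1, a factor of the same list, was higher at 0.41 (SE 0.16), among 3 of 5 such genes tested. Of the mossy cell list, 4 of 5 were tested, with Ajap1 higher (0.46). Calcrl and Drd2, at -1.53 and -1.72, passed the filter through input alone, and Drd2 was at 0.15 in KO alone and not called.

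For CA2, 4 of 7 further markers were tested, with 2 called higher and 0 lower, beside 19.6% and 22.5% of all genes. Necab2, a calcium-binding protein, was higher at 0.43 (SE 0.08), and Ptpn5, a phosphatase of striatum and hippocampus, at 0.38 (SE 0.09). Cacng5 and Ntf3 were at -0.40 and 0.22 and not called. The 5 glutamate neuron genes had a median of 0.26, and whether the CA2 values differ from it was not tested. For CA3, 5 of 6 were tested and 3 were called lower, beside 22.5% of all genes, with a list median of -0.57. The 3 were the adhesion protein Pvrl3 at -1.07 (SE 0.25), Cpne4 at -0.62 (SE 0.17) and the kainate receptor subunit Grik4 at -0.57 (SE 0.19). The CA1 and subiculum list, the fields of origin of this projection, had a median of 0.08 over 8 genes tested, with Fibcd1 (1.64) and Mpped1 (0.52) higher and Tle4 (-0.92) lower. Fn1, the gene of fibronectin, which blood vessels also make, was at -3.36 and passed the filter through input alone.

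GABA neuron markers were lower in TRAP as well. Of 10 GABA neuron genes, 9 were called lower with a median of -1.72, beside 22.5% of all genes called lower. Vip, 1 of the 9, passed the filter through input alone, and Sst was not called at -0.49. Prox1 is also known from some interneurons, and in KO TRAP 2, where GABA neuron markers summed to 628 CPM, it was 5.86 CPM, inside the range of the other TRAP libraries, and the part of interneurons in its level was not tested. Summed over the 6 dentate gyrus genes, TRAP libraries held 9.83 to 18.3 CPM and input libraries 40.9 to 108. In input most of this sum was Prox1, with a mean of 47.3 of 72.0 CPM. It also holds Lct and Npnt, which passed the filter through input alone, and is not taken as support. The 3 CA2 genes summed to 141 to 243 CPM in TRAP and 125 to 170 in input, and these ranges overlap.

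Families and partners of the 10 genes were taken from a list of 16, of which 14 were tested. Of these, 6, C1ql1 among them, were called lower and 1 higher, with a median of -0.36, beside 22.5% and 19.6% of all genes called. Of the C1q-like proteins, which bind the receptor Bai3, C1ql3 was higher, at 0.41 (SE 0.10), C1ql1, at -1.25 (SE 0.38), passed the filter through input alone, and Bai3 itself was lower at -0.46 (SE 0.10). Itga8, the integrin that binds nephronectin, was at -1.37 (SE 0.28). Rgs12, the relative of Rgs14, was at -0.89 (SE 0.13), opposite to Rgs14, and Pcp4l1, the relative of Pcp4, at -0.41 (SE 0.12). Bax was lower at -0.67 (SE 0.23), while Bak1 had -0.14 and was not called. The desmosome partners of Dsp, Jup and Pkp2, had -0.33 and 0.11 and were not called.

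Across the 12 libraries, the genes whose log2 CPM followed the mean of the 5 tested dentate gyrus markers most closely were Eml5 (Pearson r = 0.98), Itih3 (0.95), Epha6 (0.95), Pygo1 (0.95) and Msx1 (0.94). All 5 were lower in TRAP, by -0.59 for Pygo1 to -3.81 for Itih3. Since they were picked for following a mean that is itself lower in TRAP, this was bound to follow. Itih3 and Msx1 had means of 0.326 and 0.562 CPM in TRAP, near or below the level of 3 counts. For the mean of the 3 CA2 markers they were Rfc5 (0.94), Limd2 (0.92), Znrf1 (0.88), Tox3 (0.86) and Gm5619 (0.83). These correlations are descriptions over 12 libraries that share pools, fraction and depth.

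Whether FosB loss changed these markers was asked in TRAP and in input separately. In TRAP, 0 of the 7 genes tested were called between KO and WT by edgeR, 0 by DESeq2 and 0 at an unadjusted p under 0.05, and the groups overlap for all 10 genes. Of all genes, 0.0682% were called, 2.68% were higher in KO at an unadjusted p under 0.05, and 5.73% were higher in KO without overlap. The log2 fold change, KO against WT, was 0.24 for Prox1 (95% interval -0.75 to 1.24), 0.42 for Dsp (-0.82 to 1.67) and -0.29 for C1ql2 (-1.59 to 1.01). Single pools moved them: Dsp was at 1.53 without WT 2, 0.14 without WT 1 and 0.016 without WT 3, and C1ql2 at -0.86 without KO 4 and -1.08 when shared pool numbers formed a block, and none of these was called. Lct, Tdo2 and Npnt had too few counts in TRAP to be tested. The narrowest interval was that of Rgs14, from -0.36 to 0.26 around -0.05, and those of Amigo2 (-0.75 to 0.78), Pcp4 (-1.58 to 0.96) and Bok (-1.14 to 0.83) were wider. These intervals allow changes of either sign.

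In input, 0 of the 9 genes tested were called by edgeR and 0 by DESeq2, beside 0.0078% of all genes called higher in KO and 0.0234% called lower. Of the 5 dentate gyrus markers tested, Prox1, Dsp, C1ql2 and Lct were higher in KO input as fitted. Npnt was at 0.04, with a 95% interval of -1.21 to 1.30. The median over all genes was 0, and 6407 of 12816 genes were higher in KO input as fitted. The markers were read in the same libraries, with KO input 3 and KO input 4 high for most of them, and are not independent. At an unadjusted p under 0.05, 2 of the 9 genes were higher in KO, Dsp and Prox1, and of all genes 1.41% were. For Dsp the log2 fold change was 1.46 (SE 0.39, 95% interval 0.63 to 2.28, adjusted p = 0.920 by edgeR). It was the 1 gene of the 10 whose groups did not overlap, at 3.30 to 5.49 CPM in WT and 8.43 to 17.4 in KO, which 4.2% of all genes did in that direction. With 3 pools against 3 the exact permutation test gave p = 0.10, the smallest it can give. For Prox1 the log2 fold change was 0.64 (SE 0.28, 95% interval 0.03 to 1.24, adjusted p = 1.00 by edgeR), and WT input 2 is above KO input 2.

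C1ql2 and Lct had log2 fold changes, KO against WT in input, of 0.68 (95% interval -0.06 to 1.41) and 1.55 (-0.14 to 3.24), and Npnt of 0.04 (-1.21 to 1.30). The CA2 and CA3 markers were near 0, with -0.16 for Pcp4 (-0.60 to 0.29), 0.10 for Rgs14 (-0.21 to 0.40), -0.25 for Amigo2 (-0.83 to 0.33) and 0.07 for Bok (-0.35 to 0.48). The 12 further granule cell genes had 0 called and a median of 0.03, and 2 of them, Calb1 (0.29) and Rfx3 (0.30), were higher at an unadjusted p under 0.05.

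**Figure D3:**
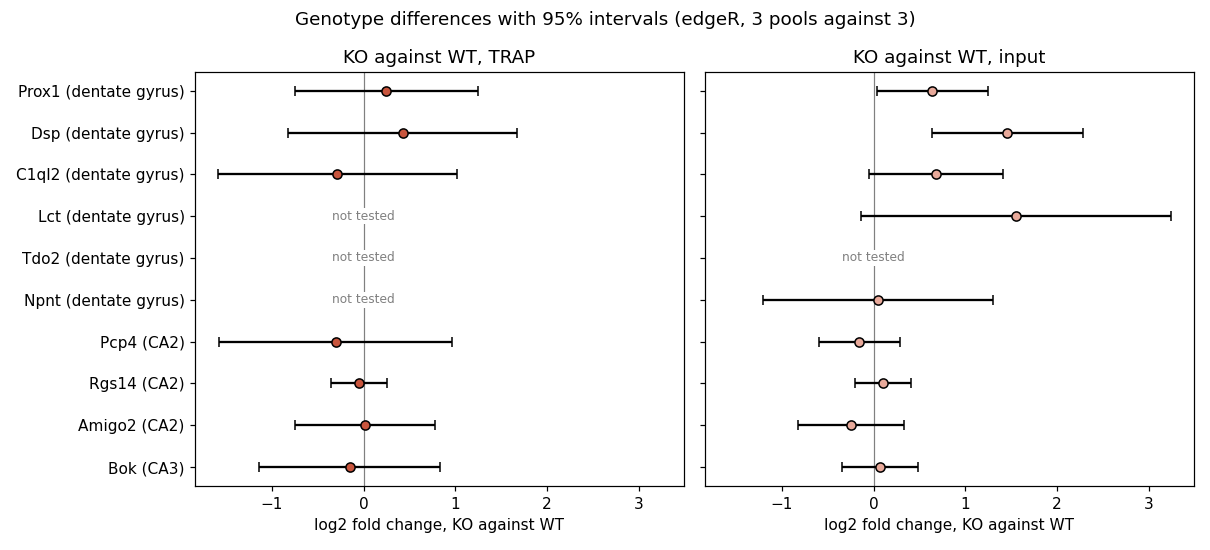
Log2 fold change, KO against WT, with 95% intervals from edgeR, of the 7 genes tested in TRAP and the 9 tested in input (3 pools against 3), with the others marked as not tested. In TRAP each interval spans 0, and in input those of Dsp (0.63 to 2.28) and Prox1 (0.03 to 1.24) do not.

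In KO input, 2 of the 3 libraries were high for most dentate gyrus markers, and all 3 for Dsp. KO input 3 and KO input 4 held 107.8 and 106.5 CPM of the 6 genes summed, and KO input 2 held 56.6, beside 40.9, 73.9 and 46.2 in WT input. Relative to each gene's mean over the 6 inputs, the median of the 6 genes was 1.59 in KO input 4, 1.44 in KO input 3 and 0.743 in KO input 2, beside 0.543, 0.969 and 0.720 in WT input. KO input 4 was in the top 2 libraries for 5 of the 6 genes and KO input 3 for 4. KO input 2 was so for 1, Dsp, which at 8.76 CPM was above each WT input. Without KO 3 the log2 fold change of Prox1 was 0.44 and that of Lct 1.06, without KO 4 that of C1ql2 was 0.41 and that of Dsp 1.03, and without WT 2 that of Lct was 3.15. With the shared pool number as a block, though these are different mice, the values were 0.39 for Prox1, 0.99 for Dsp, 0.29 for C1ql2 and 0.92 for Lct.

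**Figure D4:**
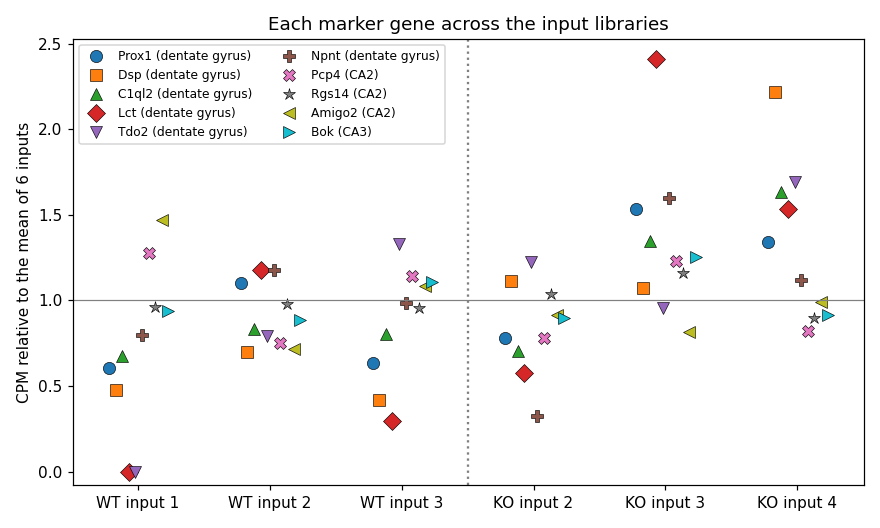
Level of each of the 10 genes in the 6 input libraries, as CPM divided by that gene's mean over the 6 (linear axis, 1 is the mean). The dentate gyrus genes are mostly above 1 in KO input 3 and 4, with medians of 1.44 and 1.59. They are mostly below 1 in WT input 1 and 3 and in KO input 2, with medians of 0.543, 0.720 and 0.743, and the median in WT input 2 is 0.969.

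Markers of choroid plexus and meninges differed between the same input libraries. The 5 choroid plexus genes summed to 259 CPM in KO input 4, most of it Ttr, and to 4.66 to 69.6 in the other inputs. In KO input 4, with its 17.4 CPM of Dsp, choroid plexus RNA was thus highest, while KO input 2 and 3, with 8.76 and 8.43 CPM of Dsp, had 8.28 and 4.66. The 4 meninges genes summed to 5.07 to 8.47 CPM in WT input and 12.6 to 20.6 in KO input, without overlap, and Col1a1 and Col1a2 had log2 fold changes, KO against WT, of 1.71 and 1.501 (unadjusted p under 0.05, adjusted p = 1.00 for both by edgeR). Of these 9 markers, Folr1 and Otx2 were at 0 in all WT input libraries, and Lum was at 0 in all KO input libraries. Desmoplakin is also known from epithelia and the meninges, and the part of these cells in the input level of Dsp was not tested.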

How the data were processed

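RNA from vHPC was sequenced as TRAP and input libraries from 3 pools per genotype. The authors mapped reads to mm9 with TopHat and deposited raw counts, whole reads per gene from HTSeq-count against Gencode vM1, with multiply aligned reads set aside, no normalization, and no strand setting given in the sources used here. They name DESeq2, without a version in those sources. Symbols, positions and exon lengths were taken from Gencode vM1. The 10 genes and all marker lists were chosen with earlier results of these data known, and every list gene called, or among the largest differences, could be named.

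edgeR 4.0.16 in R 4.3.3 was used on the counts (expression filter by group, TMM, robust quasi-likelihood test, Benjamini-Hochberg adjustment over all genes tested). TRAP was compared with input over both genotypes and in each, KO with WT in each fraction, and the interaction in all 12 libraries. Single genes were also tested by exact permutation of log2(CPM + 0.5), in scipy 1.17.1. Genes under the filter were given as counts, with no fold. Labels give 3 mice per pool and the protocol 3 to 4. Pools pair TRAP and input, as both come from the same mice; deviations from the group means correlated by 0.058 to 0.106 within pools. No 75-base stretch of the 10 genes had a near-identical copy elsewhere in mm9 (minimap2 2.31, up to 2 mismatches). Alternatives were DESeq2 1.42.0, other scalings and filters, the pool as a block, and each pool left out. Tests were checked on simulated counts. Pou3f1 was not used, since its reads are ambiguous between identifiers. Promoter letters were read from mm9.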

Additional observations from a re-analysis of the deposited data

How the results depend on the processing

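In TRAP against input over both genotypes, the 9 genes tested kept their direction under each alternative that tested them; Lct and Npnt were not tested where a mean of at least 10 counts was asked for, which left 4 called genes. Counts of called genes over the 10 stayed within 1.5 times except when pools were left out: from 1 to 3 in WT (1 without WT 2 or WT 3) and from 2 to 5 in KO (5 without KO 2, where Lct passed the filter through input alone, and 5 without KO 3). The pool as a block gave 7 called genes over both genotypes, the added one being Dsp, 3 in WT (Amigo2 in place of Npnt) and 3 in KO. For KO against WT in input, the block by shared number, which pairs different mice, reversed Npnt (-0.33) and Pcp4 (0.0833), with neither called; the WT and KO libraries of a number did not deviate together (correlations of -0.069 to 0.003).

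Some values changed sign when a pool was left out, also for genes with 49 or more counts in each library, Pcp4, Rgs14 and Bok. In WT they ranged from -1.10 to 0.0421 for Dsp and from -0.37 to 0.0855 for Bok, and in KO from -0.0296 to 0.68 for Pcp4. For KO against WT in TRAP they ranged from -0.0322 to 0.64 for Prox1, -0.86 to 0.0478 for C1ql2, -0.59 to 0.19 for Pcp4, -0.22 to 0.0742 for Rgs14, -0.25 to 0.36 for Amigo2 and -0.67 to 0.20 for Bok. In input they ranged from -0.43 to 0.46 for Npnt, -0.40 to 0.0031 for Pcp4, -0.48 to 0.0194 for Amigo2 and -0.11 to 0.17 for Bok. Interactions ranged from -1.59 to 4.39 for Lct, -1.39 to 2.72 for Npnt, -0.49 to 0.28 for Pcp4, -0.33 to 0.0527 for Rgs14, -0.0311 to 0.61 for Amigo2 and -0.57 to 0.031 for Bok.

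Testing every gene with more than 1 count moved the median of all genes in TRAP against input to -0.17. The WT call of Npnt was lost under that setting and with DESeq2. The KO call of Dsp was lost in 1 fit of all 12 libraries, and Rgs14 was called in KO when only library totals were scaled. Depth limits Lct, Npnt and Tdo2 most, at 0 to 9 counts in TRAP.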
